A study of Mus musculus with 6 samples.

Results

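The genes described here are 10 that write, copy, read and remove DNA methylation or feed the enzymes that remove it. They were chosen by symbol for their roles, with no cut on their values in the rule: the DNA methyltransferases Dnmt1, Dnmt3a and Dnmt3b, their guide Uhrf1, the methylcytosine dioxygenases Tet1, Tet2 and Tet3, the glycosylase Tdg, the methyl-CpG reader Mbd2 and the mitochondrial isocitrate dehydrogenase Idh2. All 10 were found among the 49997 genes of the deposited count table, and all 10 passed the filter on low counts, as did 21445 genes in all. The RNA came from long-term haematopoietic stem cells (LT-HSCs) of the bone marrow of 4-month-old C57BL/6J mice. The cells had been sorted by flow cytometry for low (Asrij low) or high (Asrij high) amounts of Asrij, the protein product of Ociad1, and each population was read in 3 bulk RNA-seq libraries. The name of the deposited count table holds the letters ArjKI, which the labels do not explain. Apart from the Asrij level the labels give both groups the same strain, age and tissue. They name neither an engineered Ociad1 allele nor its absence, nor the signal that was gated, nor the surface markers of the stem cell sort, nor whether separate or pooled mice supplied the 3 libraries per group. The p-values therefore weigh the group difference only against the scatter among these samples, and part of that scatter may be technical.

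Methyl groups on the cytosine of CpG dinucleotides are set by Dnmt3a and Dnmt3b, and Dnmt1 copies them onto the new strand after replication. Uhrf1 binds hemimethylated CpG and brings Dnmt1 there, so both act in dividing cells. TET enzymes oxidise methylcytosine with oxygen and alpha-ketoglutarate, and Tdg cuts out the most oxidised forms for base excision repair. Mbd2 binds methylated CpG and recruits the NuRD remodelling and deacetylase complex. In blood formation, loss of Dnmt3a or Tet2 is known to favour the expansion of stem cell clones, and mutant forms of Idh2 are known to make a metabolite that inhibits TET enzymes.

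Levels are in CPM, read counts brought to one library size with TMM factors, and are given as mean ± SD with n = 3 per group unless single libraries are named. The quasi-likelihood test of edgeR over the 21445 genes gave the adjusted p-values, read against a threshold of 0.05, and log2 fold changes are Asrij high over Asrij low with their standard error (SE). Library totals ran from 24707012 to 46240743 counts in Asrij low and from 62732782 to 72855125 in Asrij high, so depth differed with the group. The least counted of the 10 genes still had 1081 counts in its poorest library. LT-HSC markers were present in every library, but 11 of 12 were lower in Asrij high, with a summed level of 1759 to 2041 CPM in Asrij low and 493 to 913 CPM in Asrij high. In bulk samples, fewer cells of a type and less RNA per cell cannot be told apart. Ociad1, which encodes the sorted protein, was higher in Asrij high (80.3 ± 5.76 against 51.6 ± 5.72 CPM, adjusted p = 0.0115). That call was lost under scaling by library totals (adjusted p = 0.133) or upper quartiles (0.0834) and without Asrij high replicate 1 (0.0831).

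The maintenance genes Uhrf1 and Dnmt1, the reader gene Mbd2 and the glycosylase gene Tdg rose in Asrij high, whereas Tet1 and the de novo enzyme gene Dnmt3a fell. Tet2, Tet3, Idh2 and Dnmt3b did not pass the test. Of the 10 genes, 4 rose and 2 fell, with a median log2 fold change of -0.04 beside -0.02 over all genes tested. With library totals these medians were -0.31 and -0.29. In the background, 39.4% of all genes tested were called, 21.7% higher and 17.7% lower in Asrij high, so the number called is not far from what this broad difference between the populations gives. For 7 of the 10 the groups did not overlap, and the same held for 55.0% of all genes tested. For 8 of the 10 genes, all 6 called genes among them, the Asrij high library with the value closest to the Asrij low mean was replicate 2. Its summed LT-HSC markers, at 913 CPM, were also closer to Asrij low than those of replicate 1 (493 CPM) and replicate 3 (537 CPM).

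**Figure D1:**
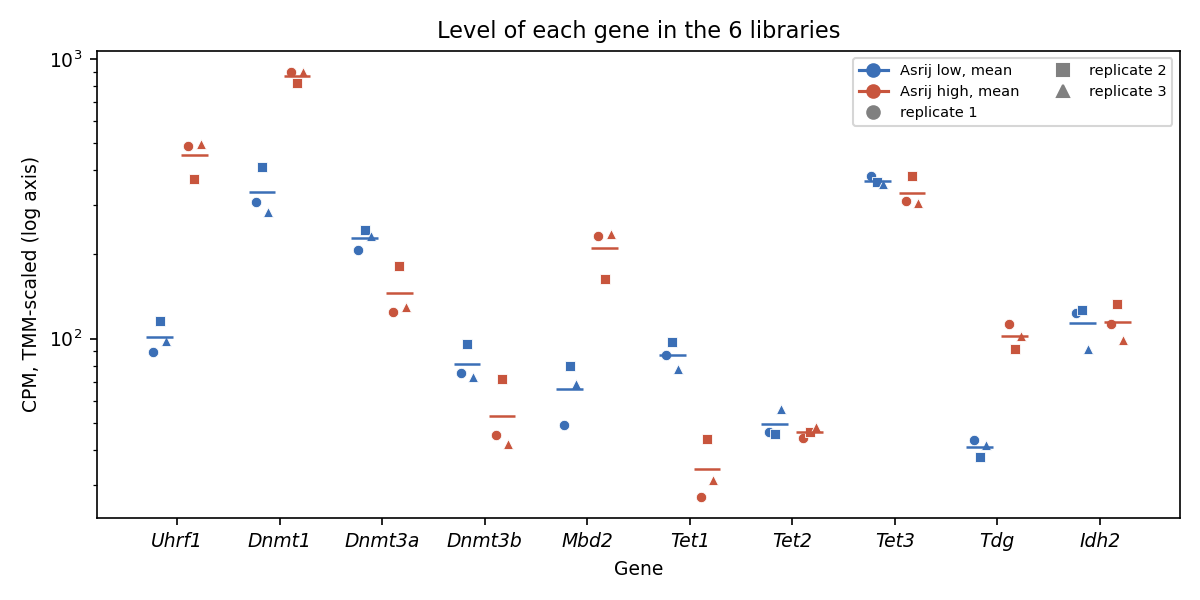
Level of each of the 10 genes in CPM (TMM-scaled, log axis) in the 3 Asrij low (blue) and 3 Asrij high (red) libraries, with symbols for replicates and bars for group means. The groups separate for 7 genes and overlap for Tet2, Tet3 and Idh2. The square of Asrij high replicate 2 lies nearest to the blue mean for Uhrf1, Dnmt1, Dnmt3a, Dnmt3b, Mbd2, Tet1, Tet3 and Tdg.

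Uhrf1 (chromosome 17, 56303337 to 56323486) had the largest change of the 10. It was at 89.5, 116 and 98.1 CPM in Asrij low replicates 1 to 3 and at 489, 372 and 495 CPM in Asrij high replicates 1 to 3. Every Asrij high library held over 3 times the level of any Asrij low library. The difference amounted to 4.47-fold (log2 2.16 ± 0.19 SE, adjusted p = 2.04e-04).

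Dnmt1 (chromosome 9, 20907206 to 20959888), the maintenance methyltransferase gene, was at 307, 412 and 285 CPM in Asrij low and at 894, 821 and 897 CPM in Asrij high. The Asrij high libraries lay close together and well above the highest Asrij low library, replicate 2. Its rise was 2.60-fold (log2 1.38 ± 0.19 SE, adjusted p = 8.48e-04). Both genes were called with the same direction under all 15 alternative analyses, from 1.11 to 1.59 for Dnmt1 and from 1.89 to 2.32 for Uhrf1.

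Uhrf1 rose by more than Dnmt1. For each Dnmt1 count there were 0.291, 0.281 and 0.345 Uhrf1 counts in Asrij low and 0.547, 0.453 and 0.552 in Asrij high. This ratio of 2 genes within a library does not depend on the scaling, and the groups did not overlap. It was 1.69-fold higher in Asrij high (difference of mean log2 ratios 0.76, two-sided exact permutation test p = 0.1, adjusted p = 0.16 over 8 such ratios). With 3 libraries against 3, 0.1 is the smallest p the test can give, so no ratio could pass.

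Genes of DNA replication rose with them. Of 17 genes in the S phase list all 17 rose, beside 21.7% of all genes tested, with a median log2 fold change of 2.29. Among them were the replication factor genes Mcm10 (3.34) and Cdc6 (3.22), the ribonucleotide reductase gene Rrm1 (2.57) and the cyclin gene Ccne1 (4.03). Pcna, the sliding clamp that travels with the replication fork, rose from 166 ± 44.5 to 638 ± 134 CPM. Measured against the summed counts of this list, Dnmt1 stood at 0.240, 0.240 and 0.221 in Asrij low and at 0.150, 0.191 and 0.146 in Asrij high. Dnmt1 thus took a smaller place beside replication genes in every Asrij high library (log2 difference -0.54, exact permutation p = 0.1). Uhrf1 against the same sum was at 0.0700, 0.0675 and 0.0763 in Asrij low and at 0.0820, 0.0863 and 0.0805 in Asrij high. Here the groups stood apart by a smaller step in the other direction (log2 difference 0.22, exact permutation p = 0.1). Whether the share of cycling cells, or the RNA of each such cell, set these levels was not tested.

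Since Uhrf1 and Dnmt1 rose together, the DNA around their annotated starts was searched on both strands for 4 octamers of the type bound by E2F factors, which drive replication genes: TTTCCCGC, TTTCGCGC, TTTGCCGC and TTTGGCGC. Of windows from 250 bases before to 50 bases after RefSeq starts (GRCm38.p6), 2.27% of 32841 hold at least 1 of them. Such windows were at hand for 9 of the 10 genes, 14 windows in all, and only 1 window of Uhrf1 and 1 of Dnmt1 had a match. Among S phase genes, 5 of 13 with a window had one (Cdc6, Mcm3, Mcm5, Mcm6 and Mcm7). Counted by gene in the same way, 2.61% of all 27018 genes with a window had one. The 250 bases before the downstream Uhrf1 start (chr17:56304063-56304312, plus strand) are shown to place its match, in capitals, 185 bases before that start.
Uhrf1: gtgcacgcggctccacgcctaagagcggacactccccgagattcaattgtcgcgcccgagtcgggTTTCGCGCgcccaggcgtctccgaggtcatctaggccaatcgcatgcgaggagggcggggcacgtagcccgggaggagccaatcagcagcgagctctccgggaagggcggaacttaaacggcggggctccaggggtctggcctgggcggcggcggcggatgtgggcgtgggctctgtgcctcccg

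Dnmt1 had 2 matches, and 30 bases around each are shown on the gene's strand with the match in capitals. The label before each stretch names the strand on which the octamer reads, not the strand printed. The first (chr9:20952824-20952853, minus strand) reads TTTCGCGC on the strand opposite to the gene and lies in an annotated exon of Dnmt1 in GENCODE M21. The other (chr9:20952574-20952603, minus strand) also lies in an annotated Dnmt1 exon, of other transcripts.
Dnmt1 opposite strand: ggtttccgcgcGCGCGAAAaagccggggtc
Dnmt1 gene strand: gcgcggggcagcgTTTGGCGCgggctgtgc

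No octamer was found in the windows of the other 7 genes, among them Tdg, which rose, and Tet1, which fell. As an example of a window without a match, a stretch before the start used for the Tet1 window (chr10:62887325-62887412, minus strand) is shown without capitals. It lies inside the listed span of Tet1, which reaches to 62887469.
Tet1: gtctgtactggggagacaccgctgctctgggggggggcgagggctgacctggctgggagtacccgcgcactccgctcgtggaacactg

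These matches are descriptions of the sequence and not measured sites of binding. The same windows differed in CpG, the dinucleotide the enzymes act on. The Tet2 window held 57 CpG and the windows of Dnmt3a up to 47, against a median of 7 over all windows, whereas the window of Tet1 held 17 and those of Dnmt1 between 2 and 33. No methylation was measured in these cells.

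The de novo methyltransferase genes were lower in Asrij high, Dnmt3a past the threshold and Dnmt3b just short of it. Dnmt3a (chromosome 12, 3801559 to 3914443) was at 207, 245 and 232 CPM in Asrij low and at 124, 182 and 130 CPM in Asrij high. All Asrij high libraries lay below all Asrij low libraries, with replicate 2 nearest. The fall was 1.57-fold (log2 -0.65 ± 0.19 SE, adjusted p = 0.0217). With replicate 2 of Asrij low left out the call was lost (adjusted p = 0.0617), as it was with replicate 1 (0.0639) or replicate 3 (0.0593) of Asrij high left out, while the direction stayed the same. A noncoding gene overlapping it, Gm31623, had 343 to 1246 counts per library and fell as well (log2 -1.25, adjusted p = 0.0122), and without a stated strand setting reads of overlapping genes cannot be told apart.

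Dnmt3b (chromosome 2, 153649411 to 153687730) was at 75.5, 95.5 and 72.7 CPM in Asrij low and at 45.1, 71.6 and 41.9 CPM in Asrij high. The groups did not overlap, but by a narrow margin: Asrij high replicate 2 was at 71.6 CPM and Asrij low replicate 3 at 72.7 CPM. The log2 fold change was -0.62 ± 0.23 SE (adjusted p = 0.0571, 95% interval -1.14 to -0.10). It passed the threshold in 9 of 15 alternative analyses, among them the fit that left out replicate 2 of Asrij high (log2 -0.86, adjusted p = 0.00712), and was at -0.45 without Asrij low replicate 2 (adjusted p = 0.179).

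Per Dnmt3a count there were 0.365, 0.390 and 0.313 Dnmt3b counts in Asrij low and 0.364, 0.393 and 0.323 in Asrij high. The groups overlapped almost completely (difference of mean log2 ratios 0.02, exact permutation p = 0.8). The related gene Dnmt3b-ps1, which RefSeq also lists as Dnmt3c and which lies downstream of Dnmt3b, went the other way. It was named after its values were seen, with 1.56 ± 0.548 CPM in the Asrij low group against 10.3 ± 3.06 CPM in the Asrij high group (log2 2.73, adjusted p = 0.00126). How the authors' counting treated reads that match both genes is not given, and how alike the genes are was not measured. With the counts of Dnmt3b-ps1 added to those of Dnmt3b the log2 fold change of Dnmt3b was -0.39 (adjusted p = 0.145).

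The makeup of the methyltransferase transcripts changed accordingly. In Asrij low each Dnmt3a count stood beside 1.49, 1.68 and 1.23 Dnmt1 counts, and in Asrij high beside 7.20, 4.51 and 6.92. The groups were far apart, 4.19-fold in mean (log2 difference 2.07, exact permutation p = 0.1). Per kilobase of exon, Dnmt1 made up 60.3% ± 2.40 of the 3 methyltransferase genes in Asrij low and 86.1% ± 3.8 in Asrij high. Dnmt3a went from 18.5% ± 2.24 to 6.37% ± 1.44 and Dnmt3b from 21.2% ± 0.260 to 7.56% ± 2.37. Exon lengths are those of GENCODE M21 over all annotated transcripts, and the shares depend on them.

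**Figure D2:**
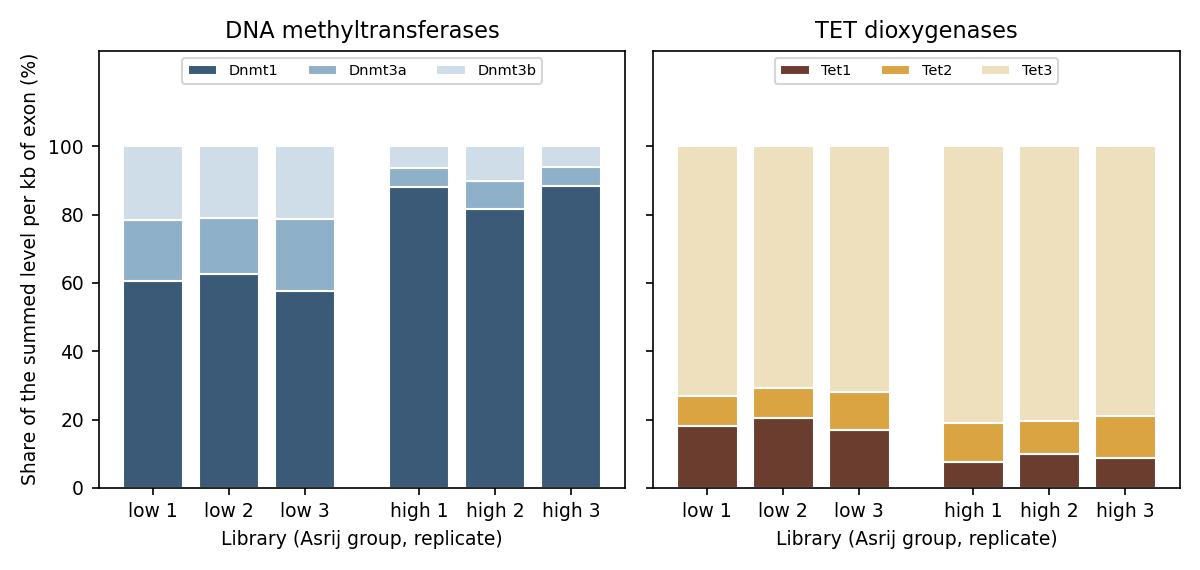
Share (%) of each gene in the summed level per kilobase of exon of the 3 DNA methyltransferase genes (left) and the 3 TET genes (right), 1 bar per library, the groups set apart by a gap. Dnmt1 takes 57.8% to 62.6% in Asrij low and 81.7% to 88.4% in Asrij high, and the share of Tet1 is smaller in every Asrij high library than in any Asrij low library.

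Among the TET genes Tet1 alone passed the test. Tet1 (chromosome 10, 62804570 to 62887469), whose protein has its own CpG-binding CXXC domain, was at 87.1, 97.4 and 77.9 CPM in Asrij low and at 27.2, 43.9 and 31.1 CPM in Asrij high. The highest Asrij high library, replicate 2, was still well below the lowest Asrij low library. The fall was 2.57-fold (log2 -1.36 ± 0.21 SE, adjusted p = 0.00141), and it was called in all 15 alternative analyses with values from -1.68 to -1.24.

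Tet2 (chromosome 3, 133463677 to 133545136), which lacks that domain and is a frequent target of mutation in clonal blood disorders, was at 46.4, 45.6 and 55.9 CPM in Asrij low and at 44.2, 46.3 and 48.2 CPM in Asrij high. Its groups overlapped (log2 -0.09 ± 0.17 SE, adjusted p = 0.69, 95% interval -0.46 to 0.28). Tet3 (chromosome 6, 83362373 to 83457208), the most abundant TET gene, was at 382, 363 and 355 CPM in Asrij low and at 310, 381 and 304 CPM in Asrij high. Asrij high replicate 2 lay among the Asrij low libraries and the other 2 below them (log2 -0.14 ± 0.16 SE, adjusted p = 0.507, 95% interval -0.50 to 0.22). For both genes the intervals exclude a 2-fold change but leave room for smaller ones. In all 15 alternatives the adjusted p stayed above the threshold, the lowest being 0.0532 for Tet3 with upper quartile factors, where its log2 fold change was -0.42.

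Counts of Tet1 were above those of Tet2 in every Asrij low library and below them in every Asrij high library, although per kilobase of exon Tet1 was still slightly above Tet2 in Asrij high replicate 2. In Asrij low there were 1.87, 2.14 and 1.39 Tet1 counts per Tet2 count, and in Asrij high 0.615, 0.948 and 0.646. The ratio was 2.46-fold lower in Asrij high, with no overlap (log2 difference -1.3, exact permutation p = 0.1). Counts of Tet3 per Tet2 count were 8.22, 7.97 and 6.36 in Asrij low and 7.01, 8.22 and 6.32 in Asrij high, and these overlapped (log2 difference -0.06, exact permutation p = 0.8). Per kilobase of exon Tet1 went from 18.5% ± 1.79 to 8.79% ± 1.17 of the TET genes, Tet2 from 9.59% ± 1.37 to 11.2% ± 1.37 and Tet3 from 71.9% ± 1.21 to 80.1% ± 1.02.

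**Figure D3:**
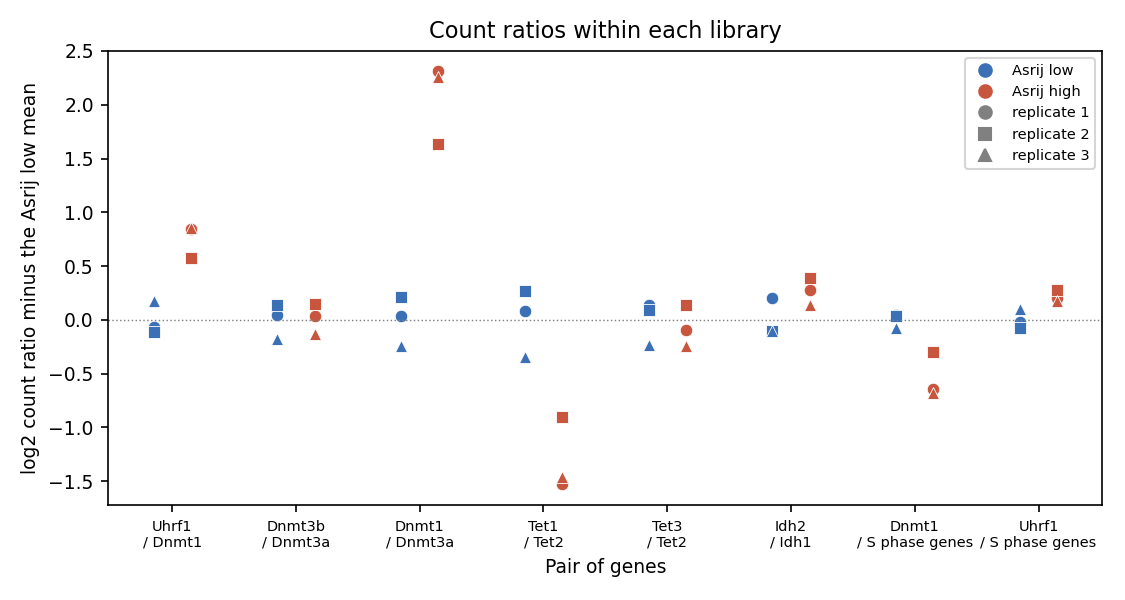
Count ratios of 8 pairs within each library, as log2 ratio minus the Asrij low mean (blue, Asrij low, red, Asrij high, symbols for replicates). The Dnmt1 to Dnmt3a ratio is higher by 2.07 and the Tet1 to Tet2 ratio lower (log2 difference -1.3) in the Asrij high mean, whereas the Dnmt3b to Dnmt3a and Tet3 to Tet2 ratios overlap between groups.

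Tdg (chromosome 10, 82629814 to 82650799), which excises the oxidation products that TET enzymes make, rose. Its levels were 43.4, 37.7 and 41.7 CPM in Asrij low and 112, 91.6 and 102 CPM in Asrij high. The libraries of each group lay close together, and the groups were far apart. This amounted to 2.49-fold (log2 1.32 ± 0.16 SE, adjusted p = 4.89e-04). Of its copies, Tdg-ps2 had 411 to 2263 counts per library and Tdg-ps 110 to 655, and with both added to Tdg the log2 fold change was 1.14 and was still called. The 3′ end of Tdg overlaps Glt8d2, which had at most 121 counts in a library.

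Mbd2, the methyl-CpG reader gene, was at 49.3, 80.0 and 68.5 CPM in Asrij low and at 233, 164 and 237 CPM in Asrij high. Even the lowest Asrij high library, replicate 2, held about double the highest Asrij low level, which was also a replicate 2. The rise was 3.20-fold (log2 1.68 ± 0.23 SE, adjusted p = 7.87e-04). Mbd2 and Tdg were called in the same direction in all 15 alternatives.

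Idh2 (chromosome 7, 80094845 to 80118608), which makes alpha-ketoglutarate in mitochondria, was at 124, 127 and 91.7 CPM in Asrij low and at 112, 133 and 99.2 CPM in Asrij high. The groups overlapped, and replicate 3 was the lowest in each. Its log2 fold change was 0.01 ± 0.18 SE (adjusted p = 0.973, 95% interval -0.41 to 0.43), and the sign changed under 8 of the 15 alternatives, library totals (-0.26) among them. Idh1, the cytosolic enzyme gene, was at 35.6 ± 6.20 CPM in Asrij low against 29.6 ± 1.75 in Asrij high (log2 -0.27, adjusted p = 0.309), and it was called lower with upper quartile factors (log2 -0.53, adjusted p = 0.0404). Counts of Idh2 per Idh1 count were 3.69, 2.97 and 2.99 in Asrij low and 3.87, 4.2 and 3.52 in Asrij high, with overlap (log2 difference 0.27, exact permutation p = 0.2).

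**Figure D4:**
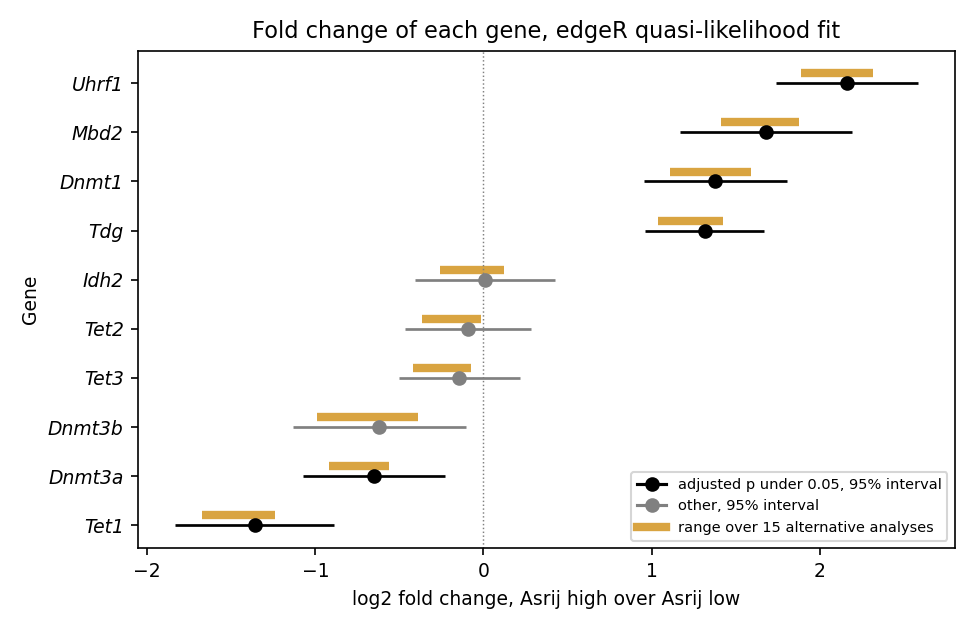
Log2 fold change of each of the 10 genes, Asrij high over Asrij low, with its 95% interval (black where the adjusted p was under 0.05, grey otherwise) and, as a yellow bar, the range over 15 alternative analyses. Uhrf1 at 2.16, Mbd2 at 1.68, Dnmt1 at 1.38 and Tdg at 1.32 lie to the right, Tet1 at -1.36 and Dnmt3a at -0.65 to the left, and the interval of Dnmt3b stops short of 0 although its adjusted p was 0.0571.

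Compared per kilobase of exon, Dnmt1 was the highest of the 10 in each group, at 45.4 ± 9.20 CPM per kilobase in Asrij low and 118 ± 5.83 in Asrij high. In Asrij low it was followed by Idh2 at 44.0 ± 7.48, from which it did not differ beyond the spread, then by Uhrf1, Tet3, Mbd2, Dnmt3b and Dnmt3a, whose ranges overlapped from each gene to the next. Tdg, Tet1 and Tet2 came last, each below the range of the gene before it, with Tet2 at 2.92 ± 0.339. In Asrij high Uhrf1 came second at 106 ± 16.3, overlapping Dnmt1, and Mbd2 followed at 65.7 ± 12.9, overlapping Idh2. Tet3 and Tdg overlapped each other, as did Dnmt3b and Dnmt3a. Tet1 was the lowest at 2.20 ± 0.565, and its range overlapped that of Tet2 at 2.74 ± 0.116.

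Around the 10 genes, lists of related genes were read from the same fit. Outside the S phase list they held 77 tested genes, each counted once, of which 38 rose and 10 fell, beside 21.7% higher and 17.7% lower over all genes tested. Of 11 tested partners of the methyltransferases 6 rose and 0 fell, with a median log2 fold change of 0.79 (0.52 with library totals). This count includes Pcna, which is also in the S phase list. Hells, a chromatin remodeller needed for normal methylation, rose from 26.0 ± 11.7 to 100 ± 19.7 CPM (log2 1.95), and the deubiquitinase gene Usp7, which stabilises Dnmt1 and Uhrf1, rose from 204 ± 27.4 to 465 ± 106 CPM (log2 1.18). Naa10 rose as well (log2 1.03). Uhrf2, the paralogue of Uhrf1, was at 83.4 ± 3.87 CPM in Asrij low against 91.7 ± 11.6 in Asrij high and did not pass the test (adjusted p = 0.518). Dnmt3l, a cofactor of the de novo enzymes, was left out by the filter at 0.069 to 0.389 CPM per library.

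Of 9 genes of methyl-CpG readers or related proteins other than Mbd2, 2 rose and 2 fell. These shares are near the 21.7% and 17.7% over all genes tested. The list median of -0.22 was -0.48 with library totals, -0.49 with upper quartile factors and -0.06 without Asrij low replicate 2. Mbd3, which is also in the NuRD list, rose from 84.7 ± 6.34 to 164 ± 11 CPM (log2 0.96, adjusted p = 0.00143). Zbtb4, a zinc finger protein gene that binds methylated DNA, fell from 80.0 ± 10.5 to 19.8 ± 4.95 CPM (log2 -2.01, adjusted p = 3.64e-04). Mbd1 (log2 0.51, adjusted p = 0.0315) and Mbd6 (log2 -0.67, adjusted p = 0.0265) were called, but each lost the call in 4 of the 6 fits with 1 library left out. These were the fits without Asrij low replicate 1 or 3 and without Asrij high replicate 1 or 3, with adjusted p up to 0.167 and 0.086. Mbd1 also lost it with library totals (adjusted p = 0.292) and upper quartile factors (0.21).

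Genes of NuRD, the complex that Mbd2 recruits, were mostly higher. Of 13 tested, with Mbd3 counted here again, 9 rose and 1 fell, with a median of 0.91. Over all genes tested, 21.7% were higher and 17.7% lower. The histone-binding subunit gene Rbbp7 rose from 73.5 ± 21.7 to 189 ± 30.2 CPM (log2 1.37) and Gatad2a from 163.3 ± 13.5 to 292 ± 15.6 CPM (log2 0.84). The one that fell was the remodeller ATPase gene Chd3, from 283 ± 20.1 to 123 ± 9.43 CPM (log2 -1.20, adjusted p = 6.20e-04). Its paralogue Chd4 was at 1033 ± 148 CPM in Asrij low against 1357 ± 70.3 in Asrij high and did not pass (adjusted p = 0.11).

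Base excision repair genes, a list of other glycosylases and of later repair steps, had 4 rises and 2 falls among 14. These shares were also near those over all genes tested. The list median of 0.49 was 0.21 with library totals and 0.22 with upper quartile factors. Parp1 (log2 0.95) and the scaffold gene Xrcc1 (log2 0.78) rose. The glycosylase genes Neil2 and Neil1 fell, Neil2 from 3.95 ± 2.08 to 0.340 ± 0.0420 CPM (log2 -3.53, adjusted p = 0.00179) and Neil1 from 20.7 ± 9.33 to 5.77 ± 2.15 CPM (log2 -1.84, adjusted p = 0.00582). The related Neil3, which acts in proliferating cells, was one of the 4 that rose (log2 1.83).

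Of the genes reported to bind, recruit or modify TET proteins, 6 of 9 were tested, 1 rose and 3 fell, where 39.4% of all genes tested were called, and so few genes show nothing particular to the list. Their median of -0.31 was -0.57 with library totals and -0.58 with upper quartile factors. Cxxc5, which carries a CXXC domain, fell from 100 ± 19.4 to 26.8 ± 18.7 CPM (log2 -1.90, adjusted p = 0.00954). Within Asrij high it was at 48.3 CPM in replicate 2 but at 14.0 CPM in replicate 1 and 18.1 CPM in replicate 3, and with no filter on low counts its adjusted p was 0.0625. Gadd45g (log2 -1.65) and the glycosyltransferase gene Ogt (log2 -0.69) fell, and Dcaf1 rose (log2 0.66). Without Asrij low replicate 1 the calls of Gadd45g and Ogt were lost (adjusted p = 0.0522 and 0.0547). Both were lost, along with that of Dcaf1, in the fit lacking replicate 1 of Asrij high, and those of Gadd45g and Dcaf1 in the fit lacking its replicate 3, with adjusted p between 0.0598 and 0.0725. Dcaf1 also lost its call with library totals (adjusted p = 0.0716) and upper quartile factors (0.0635). Sall4 had 0 counts in all 6 libraries, which allows up to 3 counts in each.

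Supply of alpha-ketoglutarate and of methyl groups was represented by 2 further lists. Enzymes that make or remove alpha-ketoglutarate or its reduced form had 9 rises and 1 fall among 14 tested, with a median of 0.93. The shares over all genes tested were 21.7% higher and 17.7% lower. Unlike Idh2, the subunit gene Idh3a of the NAD-dependent isocitrate dehydrogenase rose (log2 2.27, adjusted p = 2.69e-04), from 38.0 ± 8.28 to 183 ± 39.3 CPM, and so did the glutaminase gene Gls2 (log2 3.64) and the transaminase genes Got2 (log2 1.36) and Bcat2 (log2 1.23). D2hgdh, which clears D-hydroxyglutarate, fell from 50.1 ± 3.23 to 31.1 ± 3.03 CPM (log2 -0.69, adjusted p = 0.0115), and was at adjusted p = 0.0508 without Asrij high replicate 1.

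Genes of the methyl donor and folate cycles had 9 rises and 1 fall among 13, with a median of 0.85. Beside this, 21.7% of all genes tested were higher and 17.7% lower. Ahcy, which removes the product that inhibits methyltransferases, rose from 73.7 ± 16 to 297 ± 33.2 CPM (log2 2.01, adjusted p = 2.64e-04). The folate enzyme genes Mthfd1 (log2 3.07), Mthfd2 (log2 3.03) and Shmt2 (log2 1.40) rose.

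**Figure D5:**
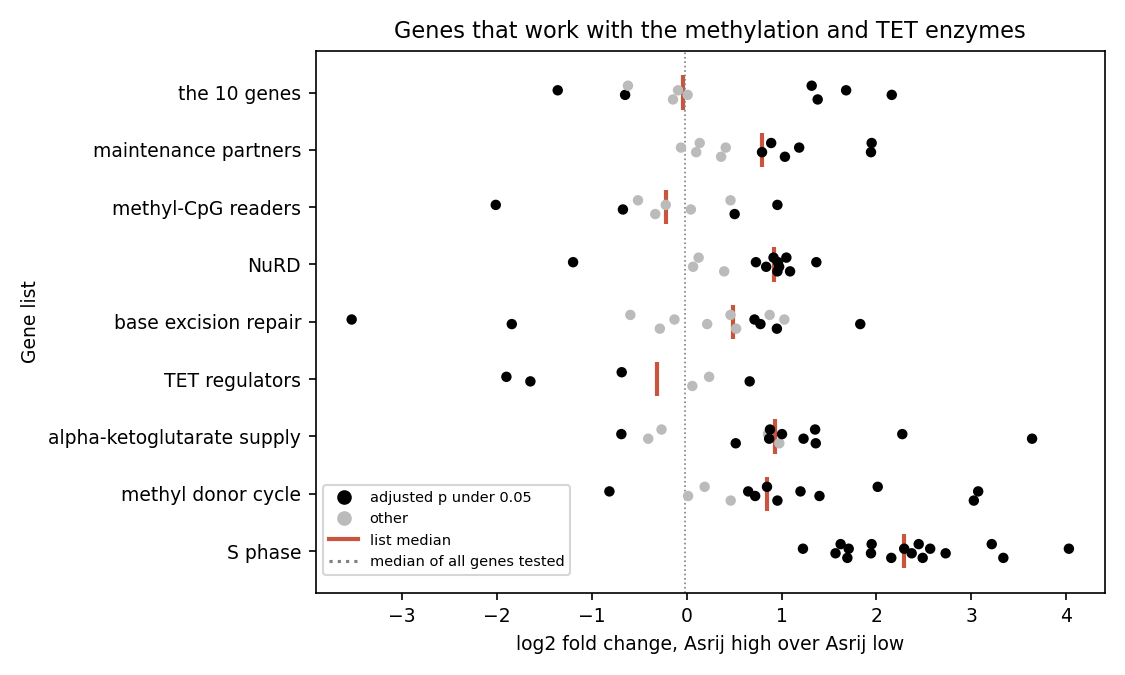
Log2 fold change, Asrij high over Asrij low, of every tested gene in each list (black where the adjusted p was under 0.05), with the list median as a red bar and the median of all genes tested as a dotted line. The 10 genes spread to both sides of a median of -0.04, whereas all 17 S phase genes lie to the right with a median of 2.29.

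Markers of other cell types also moved with the groups, where 21.7% of all genes tested were higher and 17.7% lower in Asrij high. Summed levels ran from 182 to 1032 CPM in Asrij low and from 26.3 to 42.5 CPM in Asrij high for 10 stromal markers, of which 10 fell. For 10 B and plasma cell markers they were 87.7 to 236 against 17.7 to 25.8 CPM (8 fell), and for 8 macrophage markers 76.7 to 233 against 39.2 to 46.8 CPM (6 fell). Erythroid markers, led by globins, ran from 11520 to 81390 CPM against 5096 to 8810 CPM, with 5 of 11 lower and 3 higher. Granulocyte markers ran from 941 to 3939 against 4244 to 7220 CPM, with 4 of 12 higher and 3 lower, and 8 megakaryocyte markers from 403 to 630 against 198 to 729 CPM (1 fell). Markers of T and NK cells summed to 27.0 to 42.1 against 28.8 to 64.7 CPM, with Cd3e and Cd3g at 0 in some libraries of each group. No marker was at 0 in all libraries of a group. The part of these cells in the levels of the 10 genes was not tested. Without Asrij low replicate 3, which had the highest stromal, erythroid and B cell sums, and Asrij high replicate 2, the called genes kept their direction and threshold, with Uhrf1 at 2.25, Dnmt1 at 1.304, Mbd2 at 1.86, Tdg at 1.38, Dnmt3a at -0.85 and Tet1 at -1.68.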

How the data were processed

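Bulk RNA-seq of sorted LT-HSCs was measured in 3 Asrij low and 3 Asrij high libraries. The labels' protocols give rRNA depletion and a directional kit, while the labels' molecule field says polyA RNA. The deposited values are whole-number read counts per gene symbol, without normalization. FastQC, HISAT2, SAMtools, Subread and mm10 are named in the submitters' processing notes, without versions. For annotation, strandedness and multimapping the setting is not given in the sources used here.

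Counts were tested with edgeR 4.0.16 (R 4.3.3), using TMM factors, robust quasi-likelihood fits with group as the only term, and filterByExpr (minimum count 10, minimum total 15), with Benjamini-Hochberg adjustment over 21445 genes. Alternatives used limma 3.58.1 (voom), DESeq2 1.42.0, other scalings, no filter, a replicate block and left-out libraries. Summing gene copies was chosen after seeing the data. Count ratios took a pseudocount of 0.5 and two-sided exact permutation tests. Gene coordinates and start windows are RefSeq's (GRCm38.p6, the assembly of mm10). The 10 genes, the lists and the tests were chosen with earlier results of these data known. Named from each list were up to 4 genes with the smallest p past the threshold and called genes against the list's direction, and Cdc6, Mcm3, Mcm5, Mcm6, Mcm7, Uhrf2, Dnmt3l, Chd4, Neil3, Sall4, Dnmt3b-ps1, Gm31623, Cd3e and Cd3g beside them after their values were seen. From the methyl donor list, 1 gene that this rule names is not reported here. Of 189 list symbols 188 were found. Libraries of 1 group differed by far more than counting noise (chi-square divided by its degrees of freedom 82.5 to 183), so each was counted once. The fit was tested on simulated counts, and its recall was low for small fold changes, so a gene that did not pass is not shown to be equal between groups.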

Additional observations from a re-analysis of the deposited data

How the results depend on the processing

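Depth differed with the group and limits genes such as Dnmt3l and Gadd45g more than the 10 genes, and the scaling moved the split of all calls, the list medians and some calls named with the results. Library totals gave 3270 genes higher and 4856 lower, and upper quartile factors 3447 and 5192, in place of 4655 and 3797, with a median log2 fold change of all genes of -0.29 and -0.30 in place of -0.02. The number of genes called was 8452, and it ran from 5481 (without Asrij high replicate 1) to 8935 with 1 library left out. Of the 10 genes, 5 to 7 were called over all alternatives, with 4 rises in each. Idh2 changed sign with library totals (-0.26), upper quartile factors (-0.26), RLE size factors in edgeR (-0.0406), DESeq2 (-0.0407) and when replicate 3 of Asrij low and replicate 2 of Asrij high were dropped together (-0.26), and ran from -0.15 to 0.12 with 1 library left out. With 1 library left out, the Dnmt3b to Dnmt3a difference ran from -0.0733 to 0.0919 and the Tet3 to Tet2 difference from -0.18 to 0.0236. The cause was not tested. With library totals the median was 0.64 for NuRD, 0.66 for alpha-ketoglutarate supply, 0.57 for the methyl donor cycle and 2.02 for S phase genes, and without 1 library it was 0.63 for base excision repair (Asrij low replicate 1) and 1.25 for alpha-ketoglutarate supply (Asrij low replicate 2).

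Replicate numbers are shared between groups, and the labels do not say whether same-numbered libraries came from the same mice. Deviations from the group mean correlated at 0.01, 0.05 and 0.22 between same-numbered libraries. Between differently numbered libraries the correlations ran from -0.158 to 0.0997. Centring on 3 libraries per group ties these values to each other, so they cannot decide whether the libraries were paired. The replicate block gave 8088 genes called, 7 of the 10 genes (Dnmt3b at log2 -0.65, adjusted p = 0.0223, added) and 66 in place of 65 list genes, with Mbd1 not called (adjusted p = 0.0633). Within replicate numbers the smallest permutation p of a ratio is 0.25.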
